A study of Mus musculus with 4 samples.

Results

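The immediate early response genes described here were 35 of the 32285 genes in the RNA matrices, listed by name for their known function, and their start sites were read in the open chromatin data of the same nuclei. Immune cells that were CD45+, CD64- and CD11c+ had been sorted from livers of C57BL/6J mice, and nuclei from the sorted cells had been profiled with 10x Multiome, an assay that reads RNA and open chromatin (ATAC) from each nucleus. The D0 group had received the chow with 0.1% DDC for 0 days and the D5 group for 5 days. DDC is a compound that causes bile duct injury and cholestasis, and the study's methods describe male, young adult mice unless stated otherwise. Each group was a single library with an RNA and an ATAC layer, the same gates were used for both groups, and the number of mice behind a library was not given in the sources used here. With 1 library a day, a difference between D0 and D5 is a difference between 2 libraries, and diet, mouse, sort and preparation cannot be told apart. No test was run between the days, and every interval below covers counting error only, at a confidence of 95%.

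Immediate early genes are transcribed within minutes of a signal at the cell surface, without new protein synthesis, because the factors that switch them on (SRF with its ternary complex partners, CREB and NF-kB) are already present and are activated by kinases. Many of the products are transcription factors of the AP-1, EGR and NR4A families, and many others end the response again, as the DUSP phosphatases do at the MAP kinases and Zfp36 does at short-lived mRNAs. In myeloid cells these genes are known to respond to microbial products, cytokines, adhesion and stress, and they are also known to be switched on while tissue is digested and sorted.

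The D0 library held 16260 called barcodes with a median of 1799 UMIs and the D5 library 27873 with a median of 2790, and 591 barcode sequences were found in both. After limits on depth and mitochondrial reads and removal of likely doublets, 10980 D0 nuclei and 19834 D5 nuclei were kept. At least 2 lymphoid and at least 2 dendritic markers still stood together in 40.8% of D0 and 29.2% of D5 nuclei, and the part of free RNA and of unremoved doublets in this was not tested. Nuclei were clustered without the member genes, and clusters were named from marker lists with the ending "-like". The cDC2-like class held 2147 D0 and 8314 D5 nuclei in 4 clusters. Of these, 3 are called here by their leading gene, Sirpb1a-led (600 and 2186), Dab2-led (276 and 2759) and Pclaf-led (144 and 278). The fourth, Clec10a+ (1127 and 3091 nuclei), had the highest score for the markers of that state. Its leading genes were Tnfsf9, Tnip3 and Nfkbia, and Clec10a was also raised in the Sirpb1a-led and Dab2-led clusters. PreDC-like nuclei (228 and 1492), a class with dendritic cell precursor markers, were counted apart from cDC2. A macrophage-like class (731 and 1098) was present in spite of the CD64- gate.

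RefSeq promoter sequences of build GRCm38.p6 were matched by symbol for 30 of the 35 members, and Fosl1, Egr1, Egr3, Ier2 and Myc had no entry. In the 250 bases before the start, read on both strands, the cAMP response element (CRE) TGACGTCA stood in 3 of 30 members (Btg2, Dusp1 and Ppp1r15a), 10% against 1.55% of 32807 promoters. The CArG box, the letters bound by SRF, stood in 3 members (Dusp5, Egr2 and Zfp36), 10% against 1.47%. The EGR site GCGNGGGCG stood in 10 members, 33.3% against 4.7%, and the NF-kB site in 4 (Fos, Fosb, Fosl2 and Ier3), 13.3% against 3.9%. The AP-1 site TGANTCA stood in 1 member, Csrnp1, 3.33% against 6.75%, and the TATA box TATAAA in 4, 13.3% against 12.4%. Member promoters had a median GC content of 64.8% against 52.4% for all promoters, which bears on GC-rich letters such as the EGR site. These are matches of letters and not measured binding, and a promoter without a match only lacks those letters in that window.

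The promoters of 7 members are shown for the contrasts they stand beside in the results. Fos and Fosb are 2 AP-1 genes of which Fos stayed near its D0 level in cDC2-like nuclei while Fosb was lower. Dusp1, Dusp5 and Zfp36 are feedback genes with CRE or CArG letters. Btg2 was higher at D5 once counts were scaled by TMM, and Socs3 had the highest ATAC ratio. Capitals mark the letters searched: the NF-kB site and TATA box in Fos, the NF-kB and EGR sites in Fosb, the CRE in Dusp1, both CArG boxes in Dusp5, the EGR site and CArG box in Zfp36, the CRE and EGR site in Btg2 and the EGR site in Socs3. Each runs 5′ to 3′ on the strand of its gene and ends at the base before the RefSeq start: Fos at chr12:85473640-85473889 (plus strand), Fosb at chr7:19310046-19310295 (minus), Dusp1 at chr17:26508473-26508722 (minus), Dusp5 at chr19:53528895-53529144 (plus), Zfp36 at chr7:28379229-28379478 (minus), Btg2 at chr1:134079156-134079405 (minus) and Socs3 at chr11:117969367-117969616 (minus).
Fos: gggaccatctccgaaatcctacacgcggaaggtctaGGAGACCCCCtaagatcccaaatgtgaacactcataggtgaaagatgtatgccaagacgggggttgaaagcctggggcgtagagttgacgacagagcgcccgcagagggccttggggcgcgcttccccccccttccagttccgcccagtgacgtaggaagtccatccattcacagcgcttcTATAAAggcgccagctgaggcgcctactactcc
Fosb: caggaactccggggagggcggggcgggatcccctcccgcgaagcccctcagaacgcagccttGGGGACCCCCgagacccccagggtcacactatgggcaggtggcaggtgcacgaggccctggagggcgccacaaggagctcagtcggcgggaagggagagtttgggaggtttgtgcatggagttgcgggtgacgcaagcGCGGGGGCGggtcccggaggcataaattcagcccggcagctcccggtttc
Dusp1: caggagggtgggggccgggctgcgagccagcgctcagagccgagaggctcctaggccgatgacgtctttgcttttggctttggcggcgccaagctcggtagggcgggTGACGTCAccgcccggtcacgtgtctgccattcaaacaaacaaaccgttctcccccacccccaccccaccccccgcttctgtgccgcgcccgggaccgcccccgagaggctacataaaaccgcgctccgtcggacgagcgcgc
Dusp5: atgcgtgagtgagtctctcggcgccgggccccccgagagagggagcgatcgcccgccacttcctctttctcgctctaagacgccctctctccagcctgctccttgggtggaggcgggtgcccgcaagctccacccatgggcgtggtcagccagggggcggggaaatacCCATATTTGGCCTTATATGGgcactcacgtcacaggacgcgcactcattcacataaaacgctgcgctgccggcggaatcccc
Zfp36: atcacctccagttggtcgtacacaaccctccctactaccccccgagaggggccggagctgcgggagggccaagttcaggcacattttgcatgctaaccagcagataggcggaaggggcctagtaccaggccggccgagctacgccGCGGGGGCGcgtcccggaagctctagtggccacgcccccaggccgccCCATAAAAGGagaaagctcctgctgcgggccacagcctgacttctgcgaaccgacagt
Btg2: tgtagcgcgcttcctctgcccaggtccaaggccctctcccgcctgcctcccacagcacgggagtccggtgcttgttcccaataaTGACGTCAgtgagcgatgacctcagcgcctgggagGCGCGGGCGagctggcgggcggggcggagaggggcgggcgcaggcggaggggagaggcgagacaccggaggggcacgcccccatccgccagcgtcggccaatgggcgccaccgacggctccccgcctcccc
Socs3: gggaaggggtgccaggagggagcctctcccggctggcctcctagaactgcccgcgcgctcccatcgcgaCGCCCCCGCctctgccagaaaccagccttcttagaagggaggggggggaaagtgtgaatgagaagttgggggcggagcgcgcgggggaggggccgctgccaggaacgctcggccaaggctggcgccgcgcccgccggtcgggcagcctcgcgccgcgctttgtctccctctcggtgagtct

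The letters differed within families. Fos and Fosb both carried an NF-kB site, 214 to 205 and 188 to 179 bases before the start. The TATA box was in Fos alone of the pair, 33 to 28 bases before the start, and the EGR site in Fosb alone, 50 to 42 bases before it. The CArG boxes of Dusp5 lay side by side, 82 to 73 and 72 to 63 bases before the start, and the CRE of Dusp1 lay 143 to 136 bases before it. A CRE or a CArG box was found in 6 of the 30 member promoters and in 3.01% of all promoters.

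In cDC2-like nuclei 17 of the 35 immediate early genes were lower at D5 than at D0 when scaled to all counts, and 6 were lower when scaled to the bulk of genes. Fosb, Egr3, Btg1, Klf6, Rhob and Etv3 were lower both ways, whereas Fos, Nr4a2, Socs3 and Cdkn1a stayed within 0.1 of their D0 level on the log2 scale with all counts as the scale. Levels were the summed UMIs of a class divided by all its UMIs, in CPM (counts in 1000000 UMIs of the class), and a member was called higher or lower where the levels differed at least 1.5-fold and the counting interval of the ratio left out no difference, among genes with at least 20 UMIs in both days together. All 35 members had that many. Of them 17 were called lower, against 15.5% of all genes, and 0 were called higher against 2.94%. The median log2 ratio of D5 over D0 was -0.42 for the members and -0.17 for all genes, and 31 of 35 ratios were below 0. The median of all genes was itself below 0. TMM, a scaling that takes the bulk of genes as unchanged, moved all cDC2-like log2 ratios up, since its factor for D5 over D0 was -0.28 on the log2 scale. With TMM 6 members were called lower (Fosb, Egr3, Btg1, Klf6, Rhob and Etv3; background 8.19%) and 1 higher (Btg2; background 10.8%), and the median of the members became -0.15.

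Among the Fos and Jun genes, which form the AP-1 dimers, the members parted. Fos was measured at 809 CPM at D0 and 765 at D5 (log2 ratio -0.08, interval -0.13 to -0.03). Fosb, its close paralog, was at 671 CPM at D0 and 349.5 at D5 (log2 ratio -0.94, interval -1.0 to -0.88). Both are partners of Jun in AP-1. With the clusters summed, the libraries differed in Fosb but hardly in Fos. Within clusters, Fos was below its D0 level in Sirpb1a-led nuclei and above it in Clec10a+ nuclei. Jun was at 1032 CPM at D0 and 589.9 at D5 (log2 ratio -0.81, interval -0.85 to -0.76). Jund was at 504 CPM at D0 and 312 at D5 (log2 ratio -0.69, interval -0.76 to -0.62). Junb, which is often induced later and more lastingly, was at 1952 CPM at D0 and 1573 at D5 (log2 ratio -0.31, interval -0.34 to -0.28) and was not called. Fosl2 was at 256 CPM at D0 and 222 at D5 (log2 ratio -0.20, interval -0.30 to -0.11) and not called. Fosl1 was sparse, with 22 UMIs at D0 and 61 at D5, 4.88 CPM at D0 and 2.51 at D5 (log2 ratio -0.96, interval -1.69 to -0.19), and its call rests on those few counts. Atf3, a stress-induced factor that dimerizes with Jun, was at 841 CPM at D0 and 555 at D5 (log2 ratio -0.60, interval -0.65 to -0.55), just past 1.5-fold. Maff, a small Maf protein that pairs with other bZIP factors, was at 69.4 CPM at D0 and 56.5 at D5 (log2 ratio -0.30, interval -0.48 to -0.12) and not called.

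The EGR genes, zinc finger factors downstream of MAP kinase and SRF, were each called lower with all counts as the scale. With TMM only Egr3 kept its call (log2 ratio -0.68), while Egr1 (-0.49) and Egr2 (-0.55) were not called. Egr1 was at 161 CPM at D0 and 94.6 at D5 (log2 ratio -0.77, interval -0.89 to -0.64). Egr2 was at 31.1 CPM at D0 and 17.5 at D5 (log2 ratio -0.83, interval -1.11 to -0.54). Egr3 was at 48.4 CPM at D0 and 24.9 at D5 (log2 ratio -0.96, interval -1.19 to -0.73). None of the NR4A genes, orphan nuclear receptors that act without a known hormone, was called. Nr4a1 was at 885 CPM at D0 and 665 at D5 (log2 ratio -0.41, interval -0.46 to -0.36). Nr4a3 was at 545 CPM at D0 and 406 at D5 (log2 ratio -0.42, interval -0.49 to -0.36). Nr4a2 was at 445 CPM at D0 and 445 at D5 (log2 ratio 0.00, interval -0.07 to 0.07). With all counts as the scale, Nr4a2 thus had the same level in both libraries while Nr4a1 and Nr4a3 were below their D0 level by less than 1.5-fold. With TMM the log2 ratios were 0.28 for Nr4a2, -0.14 for Nr4a1 and -0.15 for Nr4a3, and none was called. In the IER group Ier5, a cofactor of the heat shock factor HSF, was at 523 CPM at D0 and 334 at D5 (log2 ratio -0.65, interval -0.72 to -0.58) and was called. Ier2, at 465 CPM at D0 and 412 at D5 (log2 ratio -0.17, interval -0.24 to -0.10), was not. Ier3, at 147 CPM at D0 and 135 at D5 (log2 ratio -0.13, interval -0.25 to -0.01), was not called either.

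The feedback genes did not move as 1 group. Dusp1, a nuclear phosphatase of stress-activated MAP kinases, was at 889 CPM at D0 and 590.3 at D5 (log2 ratio -0.59, interval -0.64 to -0.54) and just past 1.5-fold. Dusp2, at 327 CPM at D0 and 267 at D5 (log2 ratio -0.30, interval -0.38 to -0.21), was not called. The nuclear phosphatase Dusp5, at 213 CPM at D0 and 171 at D5 (log2 ratio -0.32, interval -0.42 to -0.21), was not called either. Zfp36 (tristetraprolin), which binds AU-rich mRNAs and speeds their decay, was at 1368 CPM at D0 and 767 at D5 (log2 ratio -0.83, interval -0.88 to -0.79). Socs3, the inhibitor of STAT signalling downstream of cytokine receptors, was at 261 CPM at D0 and 245 at D5 (log2 ratio -0.09, interval -0.18 to 0.00). Of the antiproliferative BTG genes, Btg1 was at 2020.0 CPM at D0 and 1048 at D5 (log2 ratio -0.95, interval -0.98 to -0.91). Btg2 was at 1523 CPM at D0 and 1904 at D5 (log2 ratio 0.32, interval 0.29 to 0.36). The pair went opposite ways: Btg1 was called lower under both scalings, and Btg2 had the highest ratio of the members with at least 100 UMIs and was called higher under TMM (log2 ratio 0.60).

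Of the remaining members, Etv3, an ETS family repressor, had the lowest ratio, at 508 CPM at D0 and 234 at D5 (log2 ratio -1.12, interval -1.19 to -1.05). Rhob, a small GTPase of endosomes, was at 35.05 CPM at D0 and 16.4 at D5 (log2 ratio -1.10, interval -1.37 to -0.82). The zinc finger factors Klf6 and Klf2 were both called. Klf6 was at 313 CPM at D0 and 166 at D5 (log2 ratio -0.91, interval -1.0 to -0.82). Klf2, which keeps leukocytes quiescent, was at 125 CPM at D0 and 71.2 at D5 (log2 ratio -0.82, interval -0.95 to -0.68). Ppp1r15a, which restores translation after stress, was at 193 CPM at D0 and 124 at D5 (log2 ratio -0.64, interval -0.75 to -0.53) and was called. The stress sensor Gadd45b, at 579 CPM at D0 and 439 at D5 (log2 ratio -0.40, interval -0.46 to -0.34), was not. Csrnp1 was at 225 CPM at D0 and 172 at D5 (log2 ratio -0.39, interval -0.49 to -0.29) and was not called. The cyclin-dependent kinase inhibitor Cdkn1a was at 497 CPM at D0 and 513 at D5 (log2 ratio 0.05, interval -0.02 to 0.11). Myc, at 16.4 CPM at D0 and 14.96 at D5 (log2 ratio -0.13, interval -0.50 to 0.25), and Gadd45a, with 4 UMIs at D0 and 42 at D5, were too sparse to place.

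**Figure D1:**
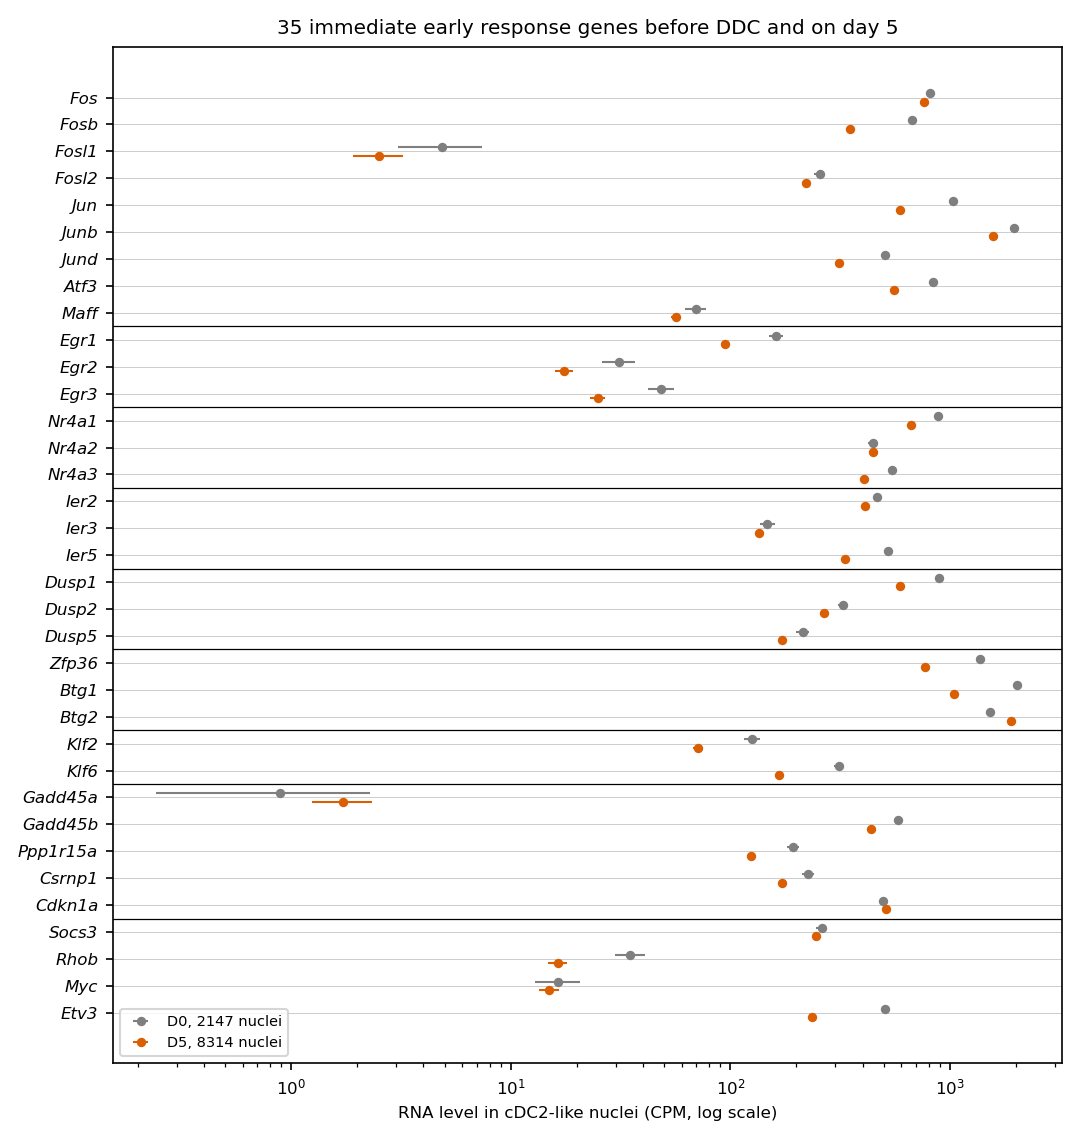
Level of each member in cDC2-like nuclei in CPM on a log axis, D0 in grey and D5 in orange, with 95% counting intervals and lines between roles. Fos (809 and 765 CPM) and Nr4a2 lie close to their D0 level, Fosb, Egr3, Btg1 and Etv3 are well below their D0 level, and Btg2 is above it.

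The share of nuclei with a UMI parted Fos from Fosb too after every nucleus was thinned to 1000 UMIs, which removes the difference in depth. Fos was found in 46.9% of thinned cDC2-like nuclei at D0 and 44.2% at D5 (unthinned 64.6% and 71.2%). Fosb was found in 43.5% and 26.4% (unthinned 62.3% and 51.5%), and Etv3 in 33.5% and 18.1% (unthinned 48.5% and 37.6%). The thinned share of Fosb thus fell further than that of Fos. The share of Btg2 was higher at D5, 70.9% at D0 and 77.8% at D5 (unthinned 88.2% and 94.3%). No class lacks these genes, so none gives a share from free RNA. Barcodes with 1 to 100 UMIs, which hold mostly free RNA, carried Fos at 748 CPM at D0 and 524 at D5 and Fosb at 359 and 181 CPM.

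In these low barcodes 13 of 34 measured members were called lower at D5, against 26.2% of all genes, and 0 higher against 1.57%, with a median of -0.39 for members and -0.38 for all genes. Jun, Fosb, Egr1, Egr2, Egr3, Klf2, Klf6, Rhob, Jund, Ier5, Btg1, Ppp1r15a and Gadd45a were those called, and how much of the difference in nuclei came from free RNA was not tested. With TMM 5 were called lower (Jun, Egr2, Klf6, Gadd45a and Rhob; background 8.28%) and 4 higher (Ier3, Socs3, Maff and Cdkn1a; background 9.98%), and the median became 0.05. The summed level of 11 heat shock genes fell with the members, from 6398 to 3376 CPM in cDC2-like nuclei. Of the 11, 9 were called lower (median log2 ratio -0.98, background 15.5%). This list was already known from earlier results to differ between the days in every class, so its fall is not a separate finding. In the low barcodes 9 of the 11 were called lower too (median -1.30, background 26.2%). The small heat shock protein gene Hspb1 was at 9.98 CPM at D0 and 0.863 at D5 (log2 ratio -3.53, interval -4.35 to -2.75), the chaperone gene Hsph1 at 135 CPM at D0 and 18.0 at D5 (log2 ratio -2.90, interval -3.08 to -2.73) and Hspa1b, an inducible chaperone gene, at 1047 CPM at D0 and 191 at D5 (log2 ratio -2.45, interval -2.51 to -2.39). Lymphoid marker RNA in the cDC2-like sums went from 871 to 518 CPM and hepatocyte RNA from 253 to 149 CPM. The mitochondrial share of UMIs went from 0.194% to 0.0991% in cDC2-like nuclei and was lower at D5 in each of the 9 classes. The part of handling, stress or RNA from other cells in the lower member levels was not tested. Without nuclei holding at least 2 NK or T cell markers, the median of the members was -0.45.

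Per nucleus the members ranged broadly. In cDC2-like nuclei thinned to 1000 UMIs the summed member UMIs had a 10th percentile of 10, a median of 18 and a 90th percentile of 29 at D0, and 6, 13 and 23 at D5. The median number of members detected was 11 at D0 and 9 at D5. The pDC-like class had the lowest summed count, with a median of 6 at D0 and 5 at D5. Sirpb1a-led nuclei had the widest spread in proportion to their mean of the cDC2-like clusters, a variance of 4.055 times the mean at D0 and 4.038 times at D5, against 2.415 and 1.932 times in Clec10a+ nuclei. In each of the 8 pairs looked at, cDC2-like nuclei with the first gene held the second more often than nuclei without it. This held on both days, though Myc at D5 hardly differed (1.497% of Fos-positive and 1.466% of Fos-negative nuclei). No pairs of other genes were looked at, so these shares have no background. At D0 Jun was found in 56.05% of the 1008 Fos-positive and 45.83% of the 1139 Fos-negative thinned cDC2-like nuclei, and at D5 in 40.8% of 3674 and 34.03% of 4640. The pooled class mixes clusters of unequal levels, and within Clec10a+ nuclei at D5 Nr4a3 was found in 37.49% of Nr4a1-positive and 37.96% of Nr4a1-negative nuclei. Other classes also held pairs that ran the other way, such as Egr1 in 4.34% of Fos-positive and 5.08% of Fos-negative macrophage-like nuclei at D5. Nuclei are not replicates, so these shares are a description of each library.

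**Figure D2:**
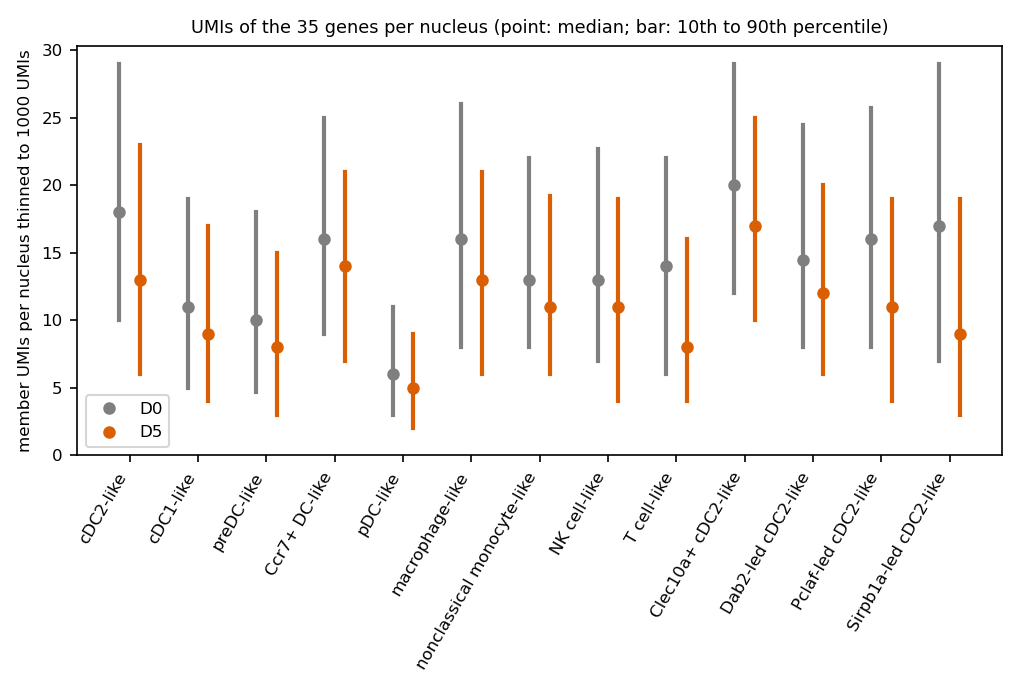
Summed member UMIs per nucleus after thinning to 1000 UMIs, by class and cDC2-like cluster, with the median as a point and the 10th to 90th percentile as a bar, D0 in grey and D5 in orange. The cDC2-like median is 18 at D0 and 13 at D5, and the pDC-like class is lowest at 6 and 5.

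The 4 cDC2-like clusters held unequal numbers of lower members. In Sirpb1a-led nuclei, 22 of 33 measured members were called lower at D5 (background 12.2%) and 0 higher (3.15%), with a median of -0.75 against -0.15 for all genes. In Clec10a+ nuclei 10 of 34 were called lower (background 13.3%) and 0 higher (4.27%), with a median of -0.23 against -0.13. Dab2-led nuclei had 7 of 33 called lower (background 9.79%) and 0 higher (3.38%), and Pclaf-led nuclei, whose leading gene marks DNA replication, 18 of 33 (background 7.78%) and 0 (3.41%). Under TMM the counts lower and higher were 13 and 1 in Sirpb1a-led (background 5.96% and 9.57%), 4 and 1 in Clec10a+ (7.1% and 11.8%), 3 and 3 in Dab2-led (4.23% and 8.72%) and 13 and 0 in Pclaf-led (5.57% and 5.62%). With that scaling the Clec10a+ median was 0.01, and the direction of the Clec10a+ group depended on the scaling. The difference between clusters was not tested.

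In Sirpb1a-led nuclei Fosb was at 718 CPM at D0 and 262 at D5 (log2 ratio -1.46, interval -1.58 to -1.33). Egr1 was at 293 CPM at D0 and 107 at D5 (log2 ratio -1.45, interval -1.65 to -1.26). Atf3 was at 1164 CPM at D0 and 486 at D5 (log2 ratio -1.26, interval -1.35 to -1.16). The D0 levels of Egr1 and Atf3 in this cluster were above those of the Clec10a+ cluster, and the D5 levels below. In Clec10a+ nuclei Egr1 was at 123 CPM at D0 and 134 at D5 (log2 ratio 0.12, interval -0.06 to 0.31). Atf3 was at 772 CPM at D0 and 674 at D5 (log2 ratio -0.20, interval -0.27 to -0.12) there, and neither was called. Sirpb1a-led nuclei also had the highest heat shock level of the 4 clusters at D0, 9249 CPM against 5019 in Clec10a+, with 3952 and 3151 CPM at D5, and its part in the member levels was not tested. Klf6 and Etv3 had the lowest ratios in Clec10a+ nuclei, at 307 CPM at D0 and 154 at D5 (log2 ratio -0.99, interval -1.12 to -0.86) and 804 CPM at D0 and 423 at D5 (log2 ratio -0.93, interval -1.01 to -0.85). Btg1 was called lower in all 4 clusters, though not in Clec10a+ nuclei with TMM, for example at 1453 CPM at D0 and 605 at D5 (log2 ratio -1.27, interval -1.42 to -1.11) in Pclaf-led nuclei. With TMM Fosb was not called in Clec10a+ nuclei either, but was called lower in the other clusters.

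The makeup of the cDC2-like class changed too, since Dab2-led nuclei held 11.7% of its UMIs at D0 and 32.5% at D5, and Clec10a+ nuclei 52% and 38.6%. With the D5 levels of the 4 clusters weighted by their D0 shares, the median ratio was -0.41, and without Dab2-led nuclei it was -0.48.

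In the other classes the members called lower at D5 ranged from a share well above the background to one near it, with a dependence on scaling. T cell-like nuclei had 13 of 32 called lower (background 9.31%) and 0 higher (4.4%), NK cell-like 9 of 34 (background 12.4%) and 0 (3.91%), and macrophage-like 11 of 34 (background 16.7%) and 0 (3.52%). cDC1-like nuclei had 9 of 34 lower (background 18.2%) and 2 higher (2.79%), and preDC-like nuclei 8 of 33 lower (background 10.7%) and 1 higher (3.46%). Ccr7+ DC-like nuclei, the mature migratory state, had 3 of 31 lower, near the background of 9.02%, and 0 higher (4.76%). Nonclassical monocyte-like nuclei had 6 of 29 lower (background 8.18%) and 2 higher (5.57%), and pDC-like nuclei 4 of 34 lower (background 7.62%) and 2 higher (4.06%).

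The medians of the members were -0.53 in T cell-like, -0.33 in NK cell-like, -0.33 in cDC1-like, -0.33 in macrophage-like, -0.26 in preDC-like, -0.20 in Ccr7+ DC-like, -0.15 in nonclassical monocyte-like and -0.07 in pDC-like nuclei, beside medians of all genes from -0.24 (cDC1-like) to -0.08 (Ccr7+ DC-like). Under TMM the medians came to 0.00 in cDC1-like, -0.02 in macrophage-like, -0.02 in Ccr7+ DC-like, 0.02 in preDC-like, 0.07 in pDC-like and 0.08 in nonclassical monocyte-like nuclei, so that the direction of the group was lost or turned there, and stayed below 0 at -0.34 in T cell-like and -0.11 in NK cell-like nuclei. The counts lower and higher under TMM were 4 and 5 in cDC1-like (background 7.29% and 11.4%), 3 and 3 in macrophage-like (6.66% and 11.5%), 4 and 3 in preDC-like (4.45% and 9.62%), 2 and 5 in nonclassical monocyte-like (4.04% and 9.4%), 1 and 2 in Ccr7+ DC-like (5.08% and 8.8%), 3 and 3 in pDC-like (4.27% and 7.07%), 4 and 0 in NK cell-like (5.14% and 9.28%) and 8 and 0 in T cell-like nuclei (4.05% and 8.32%).

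A few members were lower nearly everywhere. Fosb and Rhob were each called lower in 8 of the 9 classes, and with TMM in 7 and 8. Jun was called lower in 8 classes, and with TMM in 4. In NK cell-like nuclei Jun was at 908 CPM at D0 and 329 at D5 (log2 ratio -1.46, interval -1.59 to -1.35), in T cell-like at 984 CPM at D0 and 318 at D5 (log2 ratio -1.63, interval -1.85 to -1.41) and in cDC1-like at 674 CPM at D0 and 291 at D5 (log2 ratio -1.21, interval -1.29 to -1.14). The D5 levels of Jun in these 3 classes lay close together. Fosb was at 205 CPM at D0 and 76.2 at D5 (log2 ratio -1.42, interval -1.90 to -0.96) in T cell-like, 487 CPM at D0 and 241 at D5 (log2 ratio -1.01, interval -1.10 to -0.93) in cDC1-like and 296 CPM at D0 and 150.4 at D5 (log2 ratio -0.98, interval -1.12 to -0.84) in pDC-like nuclei. Rhob was at 53.3 CPM at D0 and 14.0 at D5 (log2 ratio -1.93, interval -2.66 to -1.15) in preDC-like nuclei, from 22 UMIs at D0 and 56 at D5. Klf2 was called lower in 7 classes (3 with TMM), Klf6 and Ier5 in 6 each (1 each with TMM), and Jund, Egr1 and Ppp1r15a in 5 each (1, 2 and 2 with TMM). Classes were not counted this way over all genes, so these counts have no background. Within a class 7.62% (pDC-like) to 18.2% (cDC1-like) of all genes were called lower. Fosb, Jun and Rhob were called lower in the low barcodes too, and Jun and Rhob also with TMM.

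Fos was called lower in 2 classes only, the lymphoid ones, at 439 CPM at D0 and 265 at D5 (log2 ratio -0.73, interval -0.88 to -0.59) in NK cell-like and 483 CPM at D0 and 278 at D5 (log2 ratio -0.79, interval -1.06 to -0.53) in T cell-like nuclei, and with TMM in T cell-like nuclei alone. In macrophage-like nuclei, where its level was highest, Fos was at 1176 CPM at D0 and 1113 at D5 (log2 ratio -0.08, interval -0.16 to 0.00), and in cDC1-like nuclei at 1002 CPM at D0 and 891 at D5 (log2 ratio -0.17, interval -0.22 to -0.12). All 9 log2 ratios of Fos were below 0 with the total as scale and 3 with TMM. The fold of Egr2 was the largest of the macrophage-like class, at 117 CPM at D0 and 28.2 at D5 (log2 ratio -2.06, interval -2.44 to -1.68). That D0 level was the highest of the 9 classes, beside 31.1 CPM in cDC2-like nuclei, the next in order.

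Members called higher at D5 were few. Ier3, a stress-response gene linked to apoptosis, was called in 3 classes, at 16.4 CPM at D0 and 32.7 at D5 (log2 ratio 1.0, interval 0.56 to 1.45) in pDC-like, 75.2 CPM at D0 and 153 at D5 (log2 ratio 1.02, interval 0.50 to 1.59) in preDC-like and 45.1 CPM at D0 and 142 at D5 (log2 ratio 1.65, interval 0.41 to 3.18) in nonclassical monocyte-like nuclei, the last from 6 and 41 UMIs. Socs3 was at 33.5 CPM at D0 and 66.6 at D5 (log2 ratio 0.99, interval 0.73 to 1.26) in cDC1-like nuclei, a class that had little of it at D0. Dusp5 was at 96.6 CPM at D0 and 148 at D5 (log2 ratio 0.61, interval 0.45 to 0.77) there, and Cdkn1a at 29.5 CPM at D0 and 50.6 at D5 (log2 ratio 0.78, interval 0.44 to 1.12) in pDC-like nuclei. Nr4a2 was called both ways, at 105 CPM at D0 and 228 at D5 (log2 ratio 1.12, interval 0.27 to 2.06) in nonclassical monocyte-like nuclei, from 14 and 66 UMIs, and 659 CPM at D0 and 417 at D5 (log2 ratio -0.66, interval -0.88 to -0.44) in T cell-like nuclei, a call that was lost with TMM (log2 ratio -0.47). With every nucleus thinned to 1000 UMIs, 0 members were called higher in pDC-like and nonclassical monocyte-like nuclei, so the calls of Ier3, Cdkn1a and Nr4a2 there were lost. In cDC1-like nuclei 1 member was then called higher against 2. Btg2 was above its D0 level in 6 of 9 classes, called lower in T cell-like nuclei and, under TMM, called higher in 5 classes and lower in 0.

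**Figure D3:**
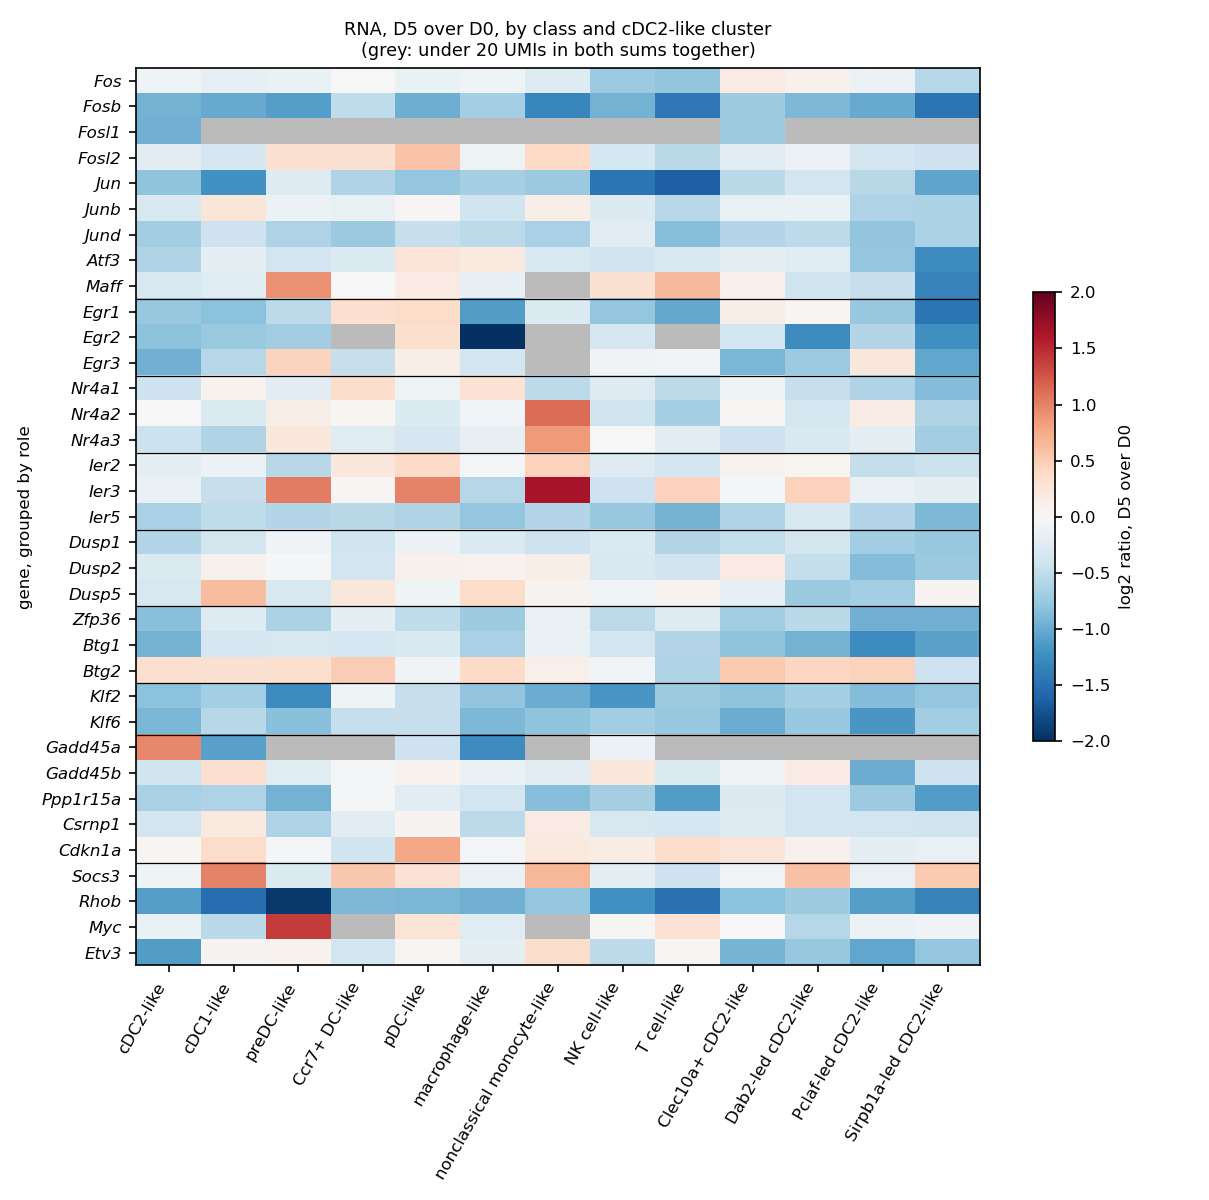
Log2 ratio of D5 over D0 for each member (rows) in 9 classes and the 4 cDC2-like clusters (columns), blue lower and red higher at D5, grey where the days together held under 20 UMIs. Values beyond 2 either way take the end colour, as does Egr2 in macrophage-like nuclei (-2.06), and the rows of Fosb, Jun and Rhob are blue nearly throughout.

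The levels themselves differed between classes by gene. At D0 the cDC2-like class had the highest level of the 9 classes for 10 members, macrophage-like for 8 and Ccr7+ DC-like for 7, and at D5 for 7, 7 and 7. The pDC-like class had the lowest level for 18 members at D0 and 12 at D5. At D0 the counting intervals of the highest and the next class overlapped for Fosl2, Jun, Btg2, Maff and Csrnp1 (cDC2-like highest). They also overlapped for Ier5, Dusp1, Gadd45a, Rhob and Cdkn1a (macrophage-like highest) and for Ppp1r15a (Ccr7+ DC-like highest). Some leads overlapped at D5 as well, such as Ier5 and Zfp36. No such ranking was made over all genes, so these counts have no background. Ccr7+ DC-like nuclei were highest for Nr4a3, at 1541 CPM at D0 and 1308 at D5 beside 545 and 406 in cDC2-like nuclei. They were also highest for Klf6, at 1097 and 799 CPM, and for Dusp5, at 545 and 637 CPM, while Egr1 was at 20.9 and 26.4 CPM in the same nuclei against 161 and 94.6 in cDC2-like. Fos was highest in macrophage-like nuclei (1176 and 1113 CPM) and next in cDC1-like (1002 and 891 CPM). Nonclassical monocyte-like nuclei led for Nr4a1 (1743 and 1217 CPM), a factor these monocytes are known to need, and for Klf2 (639 and 322 CPM).

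Within families the classes divided the members. Egr3 was highest in cDC1-like nuclei (94.98 and 64.1 CPM), Egr2 at D0 in macrophage-like and Egr1 in cDC2-like nuclei. Junb was highest in NK cell-like nuclei (2542 and 2098 CPM) and Dusp2 in T cell-like nuclei (460.5 and 349 CPM). The counting interval of Junb at D0 overlapped that of T cell-like nuclei (2454 CPM). The intervals of Dusp2 overlapped those of NK cell-like nuclei at both days (414 and 335 CPM). Socs3 was highest in cDC2-like nuclei at both days (261 and 245 CPM) and was at 38.7 and 56.1 CPM in Ccr7+ DC-like nuclei.

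PreDC-like nuclei carried less of most members than Clec10a+ cDC2-like nuclei of the same library. At D5 24 of 34 measured members were lower in preDC-like nuclei (background 7.59%) and 0 higher (26.8%), and the median log2 ratio was -1.01 beside 0.30 for all genes. At D0 23 of 33 were lower (background 8.59%) and 2 higher (23.7%), Klf2 and Rhob, with a median of -1.16 beside 0.31. With TMM 28 were lower and 0 higher at D5 (background 14.1% and 11.7%), and at D0 25 were lower and 1, Rhob, higher (background 17.8% and 9.75%). Clusters were made from other genes of the same nuclei, and Gadd45b and Socs3 ranked among the 10 leading genes of the Clec10a+ cluster, so cluster against cluster is a description.

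Gadd45b, a stress sensor upstream of MAP kinases, was at 888 CPM in Clec10a+ and 145 CPM in preDC-like nuclei (log2 ratio -2.61, interval -2.74 to -2.49) at D5. The phosphatase Dusp2 was at 519 CPM in Clec10a+ and 113 CPM in preDC-like nuclei (log2 ratio -2.20, interval -2.35 to -2.06). Egr1 was at 134 CPM in Clec10a+ and 32.0 CPM in preDC-like nuclei (log2 ratio -2.06, interval -2.33 to -1.80). Each of the 3 was several-fold lower in preDC-like nuclei of the same library. Etv3 was at 423 CPM in Clec10a+ and 118 CPM in preDC-like nuclei (log2 ratio -1.85, interval -1.99 to -1.71). Cdkn1a was at 785 CPM in Clec10a+ and 229.5 CPM in preDC-like nuclei (log2 ratio -1.77, interval -1.87 to -1.67). Fosb was at 393 CPM in Clec10a+ and 135 CPM in preDC-like nuclei (log2 ratio -1.55, interval -1.68 to -1.42). Fos, its paralog, was at 724 CPM in Clec10a+ and 561 CPM in preDC-like nuclei (log2 ratio -0.37, interval -0.44 to -0.30) and was not called with all counts as the scale, but was called lower with TMM. Jun was not called, at 485 CPM in Clec10a+ and 607 CPM in preDC-like nuclei (log2 ratio 0.33, interval 0.25 to 0.40), and Klf2, Klf6, Ier5, Myc and Rhob had ratios between 0.14 and 0.44. TMM lowers each ratio of this comparison by 0.34, and 33 of 34 were then below 0 against 28, so that all but 1 of the ratios above 0 rested on the scaling. Fosl1 rested on 39 and 2 UMIs, and Gadd45a had 13 and 5 UMIs, under the minimum. At D0 the same comparison gave Gadd45b at 928 CPM in Clec10a+ and 172 CPM in preDC-like nuclei (log2 ratio -2.43, interval -2.79 to -2.09) and Maff at 81.0 CPM in Clec10a+ and 9.70 CPM in preDC-like nuclei (log2 ratio -3.06, interval -4.95 to -1.68), the latter from 190 and 4 UMIs. Rhob was higher in preDC-like nuclei then, at 18.3 CPM in Clec10a+ and 53.3 CPM in preDC-like nuclei (log2 ratio 1.54, interval 0.73 to 2.31), from 43 and 22 UMIs.

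Sirpb1a-led nuclei had more members lower than higher beside Clec10a+ nuclei. At D0 8 of 33 members were higher than in Clec10a+ nuclei (background 18.4%) and 15 lower (background 7.22%), and at D5 4 of 35 were higher (21.7%) and 20 lower (6.73%). With TMM the D0 counts were 4 higher (Jun, Egr1, Rhob and Myc; background 6.81%) and 17 lower (background 13.2%), and the D5 counts 3 higher (background 8.69%) and 27 lower (background 11.6%). With either scaling the share higher at D5 was not above the background. At D0 Jun was at 701 CPM in Clec10a+ and 1865 in Sirpb1a-led nuclei (log2 ratio 1.41), Fos at 649 CPM in Clec10a+ and 1122 in Sirpb1a-led nuclei (log2 ratio 0.79) and Egr1 at 123 CPM in Clec10a+ and 293 in Sirpb1a-led nuclei (log2 ratio 1.26). At D5 Jun was at 485 CPM in Clec10a+ and 899.8 in Sirpb1a-led nuclei (log2 ratio 0.89), Fos at 724 CPM in Clec10a+ and 758 in Sirpb1a-led nuclei (log2 ratio 0.07) and Egr1 at 134 CPM in Clec10a+ and 107 in Sirpb1a-led nuclei (log2 ratio -0.32), so that Egr1 stood above the Clec10a+ level in the D0 library and below it in the D5 library. Between the days Fos thus went from 1122 to 758 CPM in Sirpb1a-led nuclei and from 649 to 724 CPM in Clec10a+ nuclei. Gadd45b was at 888 CPM in Clec10a+ and 97.0 in Sirpb1a-led nuclei (log2 ratio -3.19) and Nr4a3 at 572 CPM in Clec10a+ and 129 in Sirpb1a-led nuclei (log2 ratio -2.15) at D5, and both were called lower at D0 as well.

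In Dab2-led nuclei 16 of 35 members were lower than in Clec10a+ nuclei at D5 (background 4.41%) and 0 higher (5.97%), and 12 of 33 were lower at D0 (5.38%) and 1 higher (7.55%), Nr4a2 at 487 CPM in Clec10a+ and 759 in Dab2-led nuclei (log2 ratio 0.64). In Pclaf-led nuclei 17 of 34 were lower at D5 (5.76%) and 11 of 33 at D0 (6.59%), and Jun was the 1 member higher at both days (19% and 14.7%), at 485 CPM in Clec10a+ and 759 in Pclaf-led nuclei (log2 ratio 0.65) at D5. With TMM neither Nr4a2 in Dab2-led nor Jun in Pclaf-led nuclei was called (0 higher, backgrounds 3.44% and 11%). The lower counts with TMM were 17 at D0 and 18 at D5 in Dab2-led (backgrounds 9.23% and 5.76%) and 17 and 23 in Pclaf-led nuclei (13.1% and 11.8%). Gadd45b, Dusp2, Etv3 and Socs3 were called lower in preDC-like, Sirpb1a-led, Dab2-led and Pclaf-led nuclei alike at both days. The Clec10a+ cluster thus had the highest level of these 4 among the cDC2-like clusters and preDC-like nuclei. Ccr7+ DC-like nuclei differed both ways, with 7 of 34 members higher than in Clec10a+ nuclei at D5 (background 18.3%) and 22 lower (14.8%), and 5 of 33 higher (16.2%) and 21 lower (15.5%) at D0. The share higher was near the background at each day. Klf6 was at 154 CPM in Clec10a+ and 799 in Ccr7+ DC-like nuclei (log2 ratio 2.38) and Nr4a3 at 572 CPM in Clec10a+ and 1308 in Ccr7+ DC-like nuclei (log2 ratio 1.19) at D5, against Socs3 at 386 CPM in Clec10a+ and 56.1 in Ccr7+ DC-like nuclei (log2 ratio -2.78) and Egr1 at 134 CPM in Clec10a+ and 26.4 in Ccr7+ DC-like nuclei (log2 ratio -2.34).

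**Figure D4:**
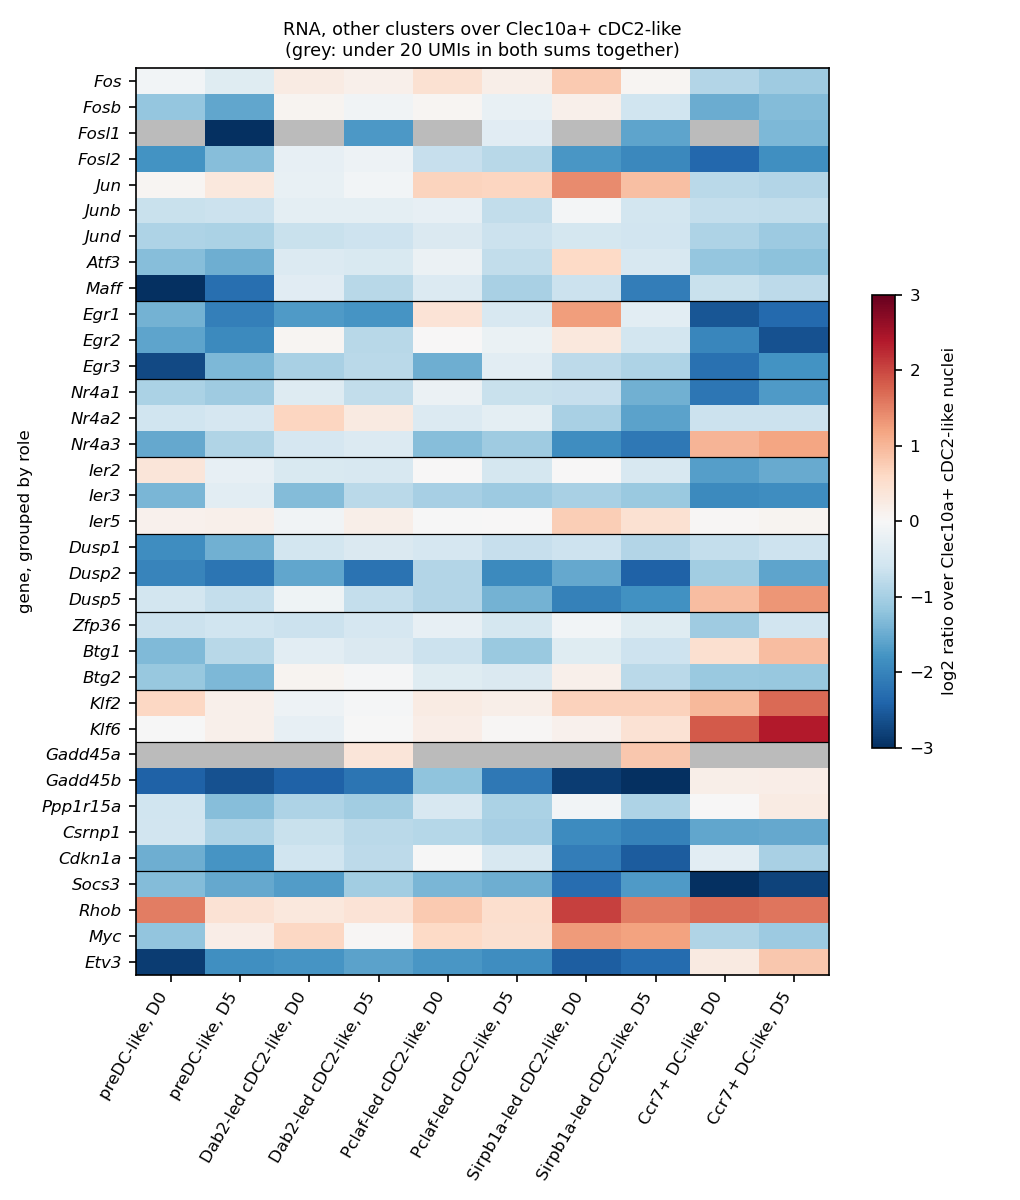
Log2 ratio over Clec10a+ cDC2-like nuclei of the same library for each member (rows) in preDC-like, Dab2-led, Pclaf-led, Sirpb1a-led and Ccr7+ DC-like nuclei at D0 and D5 (columns), blue lower and red higher, grey where under 20 UMIs were counted. Values beyond 3 either way take the end colour, the row of Gadd45b is blue in the preDC-like and cDC2-like columns (-2.61 in preDC-like at D5), and Jun is red in the Sirpb1a-led and Pclaf-led columns.

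Open chromatin at the start sites of the members gave no calls between the days in cDC2-like nuclei. Fragments were summed over the regions shared by both libraries within 2 kb of each member's start sites, 103 of 127216 regions, and are given as fragment CPM, of all fragments in shared regions. In cDC2-like nuclei 0 of 35 members were called higher at D5 (background 0.581%) and 0 lower (5.01%), the median log2 ratio was 0.12 beside -0.01 for all genes, and 30 of 35 ratios were above 0. Fosb, lower in RNA, was at 104 fragment CPM at D0 and 123 at D5 (log2 ratio 0.24, interval 0.13 to 0.35), and Fos at 102 fragment CPM at D0 and 118 at D5 (log2 ratio 0.21, interval 0.10 to 0.32). Etv3, the member with the lowest RNA ratio, was at 52.8 fragment CPM at D0 and 55.1 at D5 (log2 ratio 0.06, interval -0.09 to 0.22). Klf2 had the lowest ATAC ratio, at 82.9 fragment CPM at D0 and 72.7 at D5 (log2 ratio -0.19, interval -0.31 to -0.06). When nuclei with a count in the window were counted in place of fragments, the cDC2-like median became -0.17 and 34 of 35 ratios were below 0. The direction of these small ATAC ratios thus depended on the measure. Counting nuclei makes no correction for fragments per nucleus, which were fewer at D5 (8621230 in 2147 nuclei at D0, 25758084 in 8314 at D5). Its median over all genes was not computed, so a shift of the members cannot be told from depth there. The start-site intervals of Dusp1, Atf3, Nr4a1, Nr4a2, Csrnp1 and Cdkn1a in the files span several annotated starts and are long, up to 15 regions for Dusp1.

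Socs3 had the highest ATAC ratio in cDC2-like nuclei, at 60.9 fragment CPM at D0 and 81.5 at D5 (log2 ratio 0.42, interval 0.28 to 0.56), and was the only member called in any class. Its 1 region, chr11:117968874-117969736 in mm10, covers the start site and all of the promoter printed above, and its RNA level was 261 CPM at D0 and 245 at D5 in the same nuclei. It was called higher in cDC1-like nuclei, at 31.7 fragment CPM at D0 and 48.1 at D5 (log2 ratio 0.60, interval 0.39 to 0.82, background 0.381%), and in preDC-like nuclei, at 26.9 fragment CPM at D0 and 61.4 at D5 (log2 ratio 1.19, interval 0.62 to 1.82) from 26.5 fragments at D0 (background 1.98%). In Dab2-led nuclei it was at 42.3 fragment CPM at D0 and 71.1 at D5 (log2 ratio 0.75, interval 0.32 to 1.21, background 1.43%). In cDC1-like nuclei the RNA of Socs3 was called higher too, whereas in preDC-like nuclei it was at 162 CPM at D0 and 134 at D5 (log2 ratio -0.28, interval -0.65 to 0.11) and was not. In the other 6 classes 0 members were called in either direction, against backgrounds of 0.211% (pDC-like) to 1.91% (nonclassical monocyte-like) higher and 1.59% (T cell-like) to 2.51% (pDC-like) lower.

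Between preDC-like and Clec10a+ nuclei most ATAC ratios lay below 0, as most RNA ratios did. At D5 33 of 35 ATAC ratios were below 0, with a median of -0.23 beside -0.05 for all genes, and 4 members were called lower (background 5.02%) and 0 higher (8.98%). Those 4 were Fosl1 at 39.8 in Clec10a+ and 20.9 in preDC-like nuclei (log2 ratio -0.93, interval -1.24 to -0.63), Gadd45b at 171 in Clec10a+ and 100.4 in preDC-like nuclei (log2 ratio -0.77, interval -0.91 to -0.63), Etv3 at 62.1 in Clec10a+ and 37.5 in preDC-like nuclei (log2 ratio -0.73, interval -0.96 to -0.50) and Socs3 at 94.2 in Clec10a+ and 61.4 in preDC-like nuclei (log2 ratio -0.62, interval -0.80 to -0.44) fragment CPM, each lower in RNA as well. Egr1, also lower in RNA, was at 149 in Clec10a+ and 135 in preDC-like nuclei (log2 ratio -0.14, interval -0.27 to -0.02) and was not called. At D0 8 members were called lower (background 7.76%) and 0 higher (5.97%), with Socs3 lowest at 68.6 in Clec10a+ and 26.9 in preDC-like nuclei (log2 ratio -1.35, interval -1.98 to -0.78), and the median was -0.35 beside -0.11. With nuclei counted in place of fragments, without correction for fragments per nucleus, the D5 median was -0.06. Across the 9 classes the order of RNA levels and the order of ATAC levels had a Spearman correlation with a median over members of 0.633 at D0 and 0.683 at D5, above 0.5 for 25 and 26 members and below 0 for 3 and 2. Both layers come from the same nuclei and the correlation was not computed over all genes, so this is a description.

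**Figure D5:**
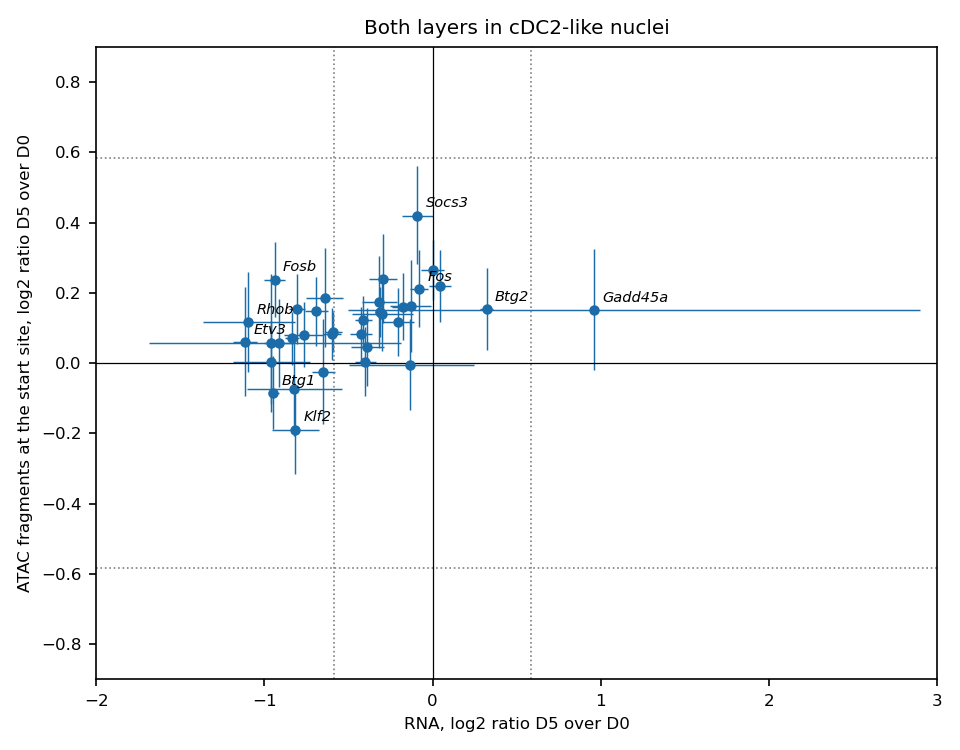
Log2 ratio of D5 over D0 in cDC2-like nuclei for each member, RNA on the x axis and ATAC within 2 kb of the start sites on the y axis, with 95% counting intervals and dotted lines at 1.5-fold. RNA ratios run from -1.12 (Etv3) to 0.96 (Gadd45a, 4 and 42 UMIs), while ATAC ratios stay between -0.19 (Klf2) and 0.42 (Socs3).

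The rest of the pathway was read from 2 further lists. Of 35 other primary response genes, 30 were measured in cDC2-like nuclei, and 7 were lower at D5 and 0 higher, with a median of -0.38, against 15.5% of all genes lower, 2.94% higher and a median of -0.17. TMM moves each of these ratios up by its factor, given above for cDC2-like nuclei. Dusp6, the cytoplasmic ERK phosphatase, was at 21.5 CPM at D0 and 8.01 at D5 (log2 ratio -1.42, interval -1.78 to -1.06). Dusp10, a phosphatase of p38 and JNK, was at 52.1 CPM at D0 and 25.1 at D5 (log2 ratio -1.05, interval -1.27 to -0.83), and Irf1, an interferon-induced factor, at 178 CPM at D0 and 92.9 at D5 (log2 ratio -0.94, interval -1.05 to -0.82). Of 20 kinases and factors upstream of the response, 3 were lower and 0 higher, with a median of -0.19, near the share and the median of all genes. Those 3 were Crtc2, a CREB coactivator, at 40.4 CPM at D0 and 24.0 at D5 (log2 ratio -0.75, interval -0.99 to -0.50), Mapkapk2, a kinase of stress signalling, at 246 CPM at D0 and 153 at D5 (log2 ratio -0.68, interval -0.78 to -0.59), and the SRF cofactor Mrtfb at 28.6 CPM at D0 and 18.2 at D5 (log2 ratio -0.65, interval -0.94 to -0.35). The TMM factor brings all 3 under 1.5-fold, so none was called with that scaling. Srf itself was at 8.87 CPM at D0 and 6.16 at D5 (log2 ratio -0.53, interval -1.04 to 0.02) and was not called. Between preDC-like and Clec10a+ nuclei at D5, 5 of 30 other primary response genes were higher and 9 lower, with a median of -0.36, and 5 of 20 upstream genes were higher and 0 lower, with a median of 0.06. Of all genes 26.8% were higher and 7.59% lower in that comparison, with a median of 0.30, so the share of upstream genes higher was near the background. Plk2, a stress-induced kinase, was at 18.6 CPM in Clec10a+ and 95.5 CPM in preDC-like nuclei (log2 ratio 2.36, interval 2.10 to 2.62), and Rgs1, an inhibitor of chemokine receptor signalling, at 498 CPM in Clec10a+ and 175 CPM in preDC-like nuclei (log2 ratio -1.51, interval -1.62 to -1.39).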

How the data were processed

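RNA and ATAC were measured in the same nuclei of 2 libraries, grouped as D0 and D5 from the labels. The deposited matrices hold raw counts, UMIs per gene and cut sites per peak, made by the authors with Cell Ranger ARC 2.0.2 on mm10 according to the submitters' processing notes, with no pooling. Peak counts were mostly even (80.9% of entries at D0, 83.2% at D5) and were divided by 2 to give fragments. Peaks of the 2 libraries that shared at least 1 base were joined into 127216 regions, and a gene took those within 2 kb of its start-site interval. The headers of the RNA matrices name another Cell Ranger version, but the gene counts of all 16260 D0 and 27873 D5 called barcodes were identical in the joint matrices, whose headers name Cell Ranger ARC. The layers were joined by these counts, which at D0 gave the same barcode for all 16260. The D5 joint matrix came without its own barcodes, so the D5 join could not be checked by barcode. Whether intronic reads were counted is not given in the sources used here.

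The members, the companion lists and the comparisons were chosen with earlier results of these data known. Called barcodes under 1000 UMIs, or with over 10% of UMIs from mitochondrial genes, were dropped. Doublets were scored by scrublet in each library (expected rate 0.1), and those at 0.2 or above, 23.1% at D0 and 25.5% at D5, were removed. Scanpy 1.11.5 clustered the rest (2000 variable genes, 30 components, 15 neighbours, Leiden resolution 1) into 19 clusters, of which 4 stayed unnamed. Members and companion lists were left out of the clustering genes, except the hepatocyte genes, which could enter. The naming thresholds were set with the clusters in view.

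Counts were summed per class and day where both days held at least 100 nuclei. With 1 library a day no test was planned or run. Levels carry exact Poisson, shares Clopper-Pearson and ratios conditional binomial intervals at 95%, for counting error only. TMM factors followed the formula of edgeR, and were checked against edgeR 4.0.16 on simulated data. All members were accounted for. The members called between the days in cDC2-like nuclei were named, and in other classes and clusters some calls are given as counts only. From companion lists up to 4 genes of largest log2 ratio either way were named. Alternatives were TMM and median-of-ratios scaling, no doublet removal, 2000 UMIs, resolution 1.5, members among the clustering genes, a 2-fold limit, no count minimum, thinning to 1000 UMIs, windows of 0.5 and 10 kb and nuclei with a count in the window.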

Additional observations from a re-analysis of the deposited data

Results flagged for a closer look

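Nr4a2 was the 1 member called in both directions between the days with all counts as the scale. Its log2 ratio of D5 over D0 was 1.12 in nonclassical monocyte-like nuclei, from 14 UMIs at D0 and 66 at D5, and -0.66 in T cell-like nuclei. With TMM the ratios of Nr4a2 were 1.34 and -0.47, and the second was no longer called. With nuclei thinned to 1000 UMIs the call in nonclassical monocyte-like nuclei was lost, where 0 members were then called higher. Each class was 1 library a day, and the difference between the classes was not tested.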

How the results depend on the processing

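Each day was 1 library, so leaving out a replicate was not possible. No paired analysis was possible because the labels give no replicate numbers and each day is 1 library. Of the values under other settings, 195 stayed within 1.5 times the reported count or within the median counting error of a member's log2 ratio, 72 moved and 1 reversed. A median counted as reversed only where its sign changed and either value lay beyond that counting error. Smaller sign changes were not counted as reversed, such as the nonclassical monocyte-like median of -0.15, which was 0.08 with TMM. Depth limited rare members: the call of Ier3 in nonclassical monocyte-like nuclei had 6 UMIs behind it at D0 and 41 at D5.

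Under other scalings, for cDC2-like nuclei between the days, the median (reported -0.42, with 0 higher and 17 lower) was -0.15 with TMM and -0.15 with median-of-ratios factors, each with 1 higher and 6 lower. For preDC-like over Clec10a+ at D5 the median (-1.01) was -1.35 with TMM and -1.34 with median-of-ratios. The NK cell-like median (-0.33) was -0.11 and -0.14, with 4 and 5 lower against 9. The cDC1-like median (-0.33) was -0.0044 and -0.015, with 5 higher and 4 lower under each against 2 and 9. The macrophage-like median (-0.33) was -0.018 and -0.036, with 3 and 2 higher against 0, and 3 and 4 lower against 11. T cell-like nuclei had 8 lower under each against 13, Ccr7+ DC-like nuclei 2 higher and 1 lower under each against 0 and 3, and preDC-like nuclei 3 higher and 4 lower under each against 1 and 8. Nonclassical monocyte-like nuclei had 5 higher with TMM against 2, and 2 and 3 lower against 6. Total counts and the bulk of genes are different baselines by construction.

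A 2-fold limit left lower calls of 2 in cDC2-like, 0 in Ccr7+ DC-like, 3 in NK cell-like, 5 in T cell-like, 4 in cDC1-like, 3 in macrophage-like, 1 in nonclassical monocyte-like, 0 in pDC-like and 3 in preDC-like nuclei, and 0 higher calls in cDC1-like and pDC-like nuclei. Without doublet removal the cDC2-like median was -0.57 with 1 higher, the preDC-like over Clec10a+ median -0.69, and higher calls were 1 in cDC1-like, 4 in pDC-like and 2 in preDC-like nuclei, with 5 lower in Ccr7+ DC-like and 5 in preDC-like nuclei. Nuclei of at least 2000 UMIs gave 3 higher in Ccr7+ DC-like, 1 higher in cDC1-like and 2 lower in pDC-like nuclei. Resolution 1.5 gave a cDC2-like median of -0.55, and clustering with the members -0.53, each with 1 higher in Ccr7+ DC-like and 1 in cDC1-like nuclei. Thinning gave -0.52, with 1 higher in cDC1-like and 0 in nonclassical monocyte-like and pDC-like nuclei. The cause of these moves was not tested.

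In ATAC, counting nuclei with a count in the window, without correction for fragments per nucleus, turned the cDC2-like median from 0.12 to -0.17. For preDC-like over Clec10a+ it gave -0.062 against -0.23, with 1 lower against 4, and 1 was lower without doublet removal. The limit of 2000 UMIs could not be run for NK cell-like, T cell-like and nonclassical monocyte-like nuclei, since no cluster took the name, nor for preDC-like nuclei between the days, with 46 at D0. Alternatives chosen after seeing the data, among them leaving out the Dab2-led cluster (median -0.475) and nuclei with NK or T cell markers (-0.45), kept the direction of the median, and the counts that were computed stayed within 1.5 times those reported.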

Other observations

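Neutrophil-like nuclei, 88 at D5 and 5 at D0, were too few for a comparison. At D5 the members made up 18310.0 CPM of their RNA, with a median of 19 member UMIs per nucleus after thinning to 1000 UMIs and 10th and 90th percentiles of 9.7 and 27. Junb was at 2261 CPM (interval 2041 to 2498), the stress gene Gadd45b at 908 (771 to 1063), Fos at 662 (545 to 796), Nr4a3 at 633 (519 to 764) and Egr1 at 579.9 (471 to 706).

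The 4 unnamed clusters also held the members. Their summed level was 15786 CPM at D0 and 13400.5 at D5 in the Adgrl3-led cluster, 15637 and 13035 in the Cxcl10-led, 13503 and 9868 in the Atp8a2-led and 10363 and 8531 in the Prkca-led cluster. All 4 were lower at D5 with the total as scale, and no call was made on these sums.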
